A study of Homo sapiens with 2 samples.

Results

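Prostaglandins and the products of lipoxygenases are made from arachidonic acid, and the 10 genes described here encode enzymes of these routes: the cytosolic phospholipase PLA2G4A, the cyclooxygenases PTGS1 and PTGS2, the prostaglandin E synthases PTGES, PTGES2 and PTGES3, the prostaglandin dehydrogenase HPGD, and the lipoxygenases ALOX5, ALOX12 and ALOX15B. They were taken by symbol, and all 10 were found among the 60616 genes of the deposited tables. The data are 2 RNA-seq libraries of HSC-3, a cell line grown from a squamous carcinoma of the human tongue and thus a single model of head and neck cancer, 1 from cells given FIN56 at 1 µM for 48 h and 1 from cells given the vehicle DMSO at 0.1%, for which the labels state no time. FIN56 is a small molecule that lowers the amount of the lipid peroxidase GPX4 and induces ferroptosis, a cell death driven by peroxidation of membrane lipids. The comparison asks which transcripts of these routes differed between sublethal ferroptotic stress and vehicle.

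The libraries held 70184517 expected counts (DMSO) and 73062209 (FIN56), which are RSEM estimates that divide a read between the genes it fits. With 1 library per condition there was no replicate check, no p-value could be given, and "higher" and "lower" compare these 2 libraries only. All 8 squamous epithelial markers examined were present at an FPKM of 43.84 or more in both libraries, and the endothelial markers summed to an FPKM of 0.08 in each. Of the 4 leukocyte markers, PTPRC and CD3E were listed at 0 in both libraries while CD14 and CD68 were present, and the fibroblast markers summed to an FPKM of 4.6 with DMSO and 2.5 with FIN56. A lower level in RNA from a whole culture may mean fewer cells expressing a gene or less RNA per cell, and these cannot be told apart.

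Arachidonic acid is freed from membrane phospholipids by phospholipase A2, oxygenated by cyclooxygenases to prostaglandin H, and converted by terminal synthases to prostaglandin E and other prostanoids. Lipoxygenases instead add oxygen at fixed positions of the chain, which yields leukotrienes and hydroxy acids. PTGS1 is expressed steadily in many tissues, whereas PTGS2 is induced by growth factors, cytokines and stress, and its transcript is widely used as a marker of ferroptosis.

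The upstream promoter bases of 4 genes are shown, since PTGS2, PLA2G4A and PTGES were higher with FIN56 and PTGS1 was lower. Each stretch holds the 250 bases before a RefSeq transcription start (GRCh38.p14), on the strand of the gene. Capitals mark letters that match a searched motif on either strand. They are PTGS2 at chr1:186680424-186680673 (minus strand), PLA2G4A at chr1:186828699-186828948 (plus), PTGES at chr9:129753043-129753292 (minus) and PTGS1 at chr9:122370283-122370532 (plus).
PTGS2: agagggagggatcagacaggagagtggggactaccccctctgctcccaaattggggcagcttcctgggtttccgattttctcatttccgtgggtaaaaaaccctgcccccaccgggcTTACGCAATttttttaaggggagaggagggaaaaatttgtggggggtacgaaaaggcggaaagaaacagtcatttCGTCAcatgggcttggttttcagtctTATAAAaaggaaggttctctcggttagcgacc
PLA2G4A: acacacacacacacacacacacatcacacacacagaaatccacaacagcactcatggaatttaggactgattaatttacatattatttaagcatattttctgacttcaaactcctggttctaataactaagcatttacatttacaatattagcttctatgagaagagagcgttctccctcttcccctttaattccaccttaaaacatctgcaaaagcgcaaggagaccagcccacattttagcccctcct
PTGES: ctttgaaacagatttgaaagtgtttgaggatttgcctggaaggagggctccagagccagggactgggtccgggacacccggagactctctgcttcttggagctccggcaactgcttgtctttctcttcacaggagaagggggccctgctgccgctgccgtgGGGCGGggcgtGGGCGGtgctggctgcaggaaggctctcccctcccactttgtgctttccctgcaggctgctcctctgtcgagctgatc
PTGS1: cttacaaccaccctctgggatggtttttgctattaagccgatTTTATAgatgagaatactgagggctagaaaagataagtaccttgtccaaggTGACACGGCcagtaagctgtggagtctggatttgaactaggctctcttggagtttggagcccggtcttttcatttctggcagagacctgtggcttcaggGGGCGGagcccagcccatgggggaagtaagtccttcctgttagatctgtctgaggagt

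The motifs searched were TATAAA (the core promoter motif bound by TBP), GGGCGG (GC box), CGTCA (the short core of a cyclic AMP response element), TTNNGNAAT (C/EBP), TGANTCA (AP-1), TGACNNNGC (antioxidant response element) and the NF-κB consensus GGGRNWYYCC, with no overlap among the matches found. N is any base, R is A or G, W is A or T, and Y is C or T. Positions are counted back from -1, the base before the start. PTGS2 held TATAAA from -32 to -27, CGTCA from -58 to -54 and TTACGCAAT from -133 to -125. TATAAA is found in 10.7% of the 35116 windows of this length in the table, CGTCA in 21.2% and TTNNGNAAT in 9.85%. PTGES held GGGCGG at 2 places, from -89 to -84 and from -78 to -73, and GGGCGG is found in 42.6% of windows. PTGS1 held GGGCGG from -58 to -53, TGACACGGC from -157 to -149 (TGACNNNGC is found in 10.9% of windows), and TATAAA on the opposite strand from -208 to -203. The PTGS1 window is the nearer of 2 in the table, and its start lies 491 bases from that of the canonical transcript in GENCODE release 44. PLA2G4A held none of the 7 motifs. The NF-κB consensus (5.21% of windows) and TGANTCA (6.57%) matched in none of the 4 windows, which says only that these exact letters are not there. Near matches were not searched. The PTGS2 window holds gggactaccc, which departs from the NF-κB consensus at a single letter, so absence of an NF-κB site cannot be read from this search. Promoters of 8 of the 10 genes were in the table.

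The transcripts spanned a wide range of abundance, as the plot of FPKM in both libraries shows. FPKM is a level per length of transcript, so it allows genes to be compared. PTGES3 was the most abundant at an FPKM of 320.98 with DMSO and 364.84 with FIN56, followed by PTGES2, PTGS1 and PTGES between 17.35 and 43.87. PTGS2, PLA2G4A and ALOX5 lay between 0.71 and 5.59, and ALOX12 at 0.37 and 0.3. HPGD and ALOX15B were at or near 0. PTGES3 and PTGES2 led in both libraries. PTGS1 came next with DMSO, whereas PTGES (23.03) stood just above PTGS1 (22.19) with FIN56, a gap with no replicate spread to judge it by.

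**Figure D1:**
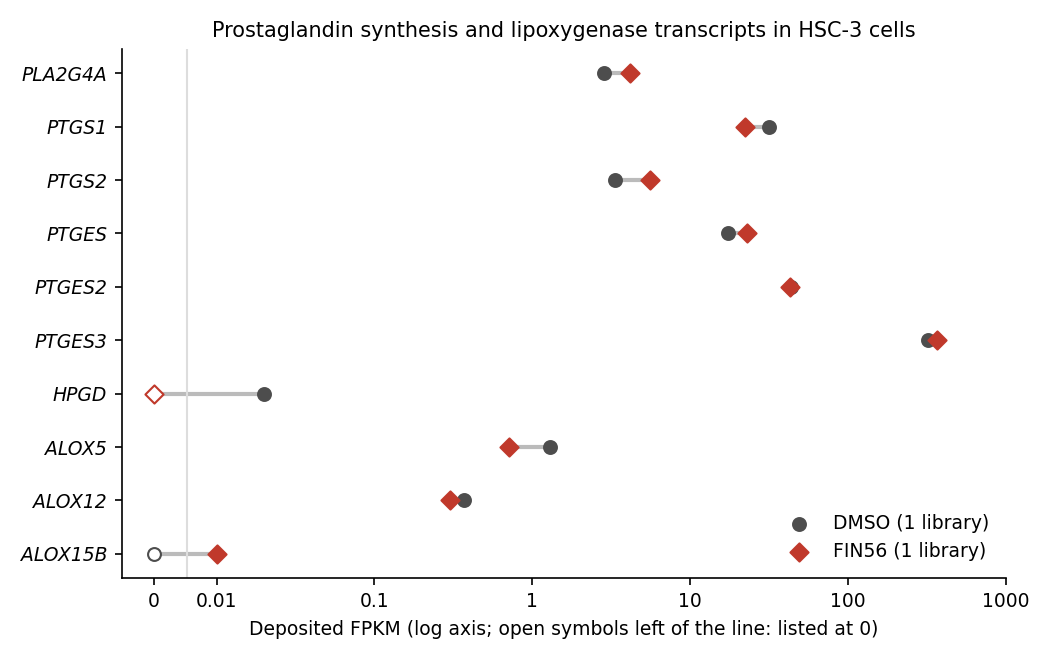
FPKM of the 10 genes on a log axis in the DMSO library (grey circles) and the FIN56 library (red diamonds), 1 library each, with a value listed at 0 drawn as an open symbol. PTGS2, PLA2G4A, PTGES and PTGES3 lay to the right with FIN56, PTGS1 and ALOX5 to the left, and HPGD and ALOX15B were each listed at 0 in 1 library.

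The fold change was the deposited FPKM with FIN56 divided by that with DMSO, for genes above 0 in both. Beside it stands the ratio of the rounded expected counts scaled by the library totals, with an exact Clopper-Pearson interval at 95%. The intervals cover counting error only, since the reads carry no molecular identifiers and may copy the same molecule. Of the 10 genes, 8 had a fold change, and 1 reached 1.5 or more (PTGS2), a share near that of all 24454 genes with a fold change, of which 14.7% did. At 1/1.5 or less there was also 1 gene (ALOX5), against 17.3% of all genes. Many genes past these thresholds had few reads. Among the 6 whose FPKM was 1 or more with DMSO and with FIN56, 1 gene was at 1.5 or more and 0 were at 1/1.5 or less, against 3.87% and 6.77% of the 12638 genes at such levels. The counting interval lay above 1 for 4 of the 8 (PLA2G4A, PTGS2, PTGES and PTGES3) and below 1 for 2 (PTGS1 and ALOX5). Across all 17372 genes that had 10 or more counts in each library these shares were 31.3% and 31.0%, so an interval that leaves out 1 was common in these deep libraries. The median log2 fold change of the 8 genes was 0.082, against 0 over all genes.

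**Figure D2:**
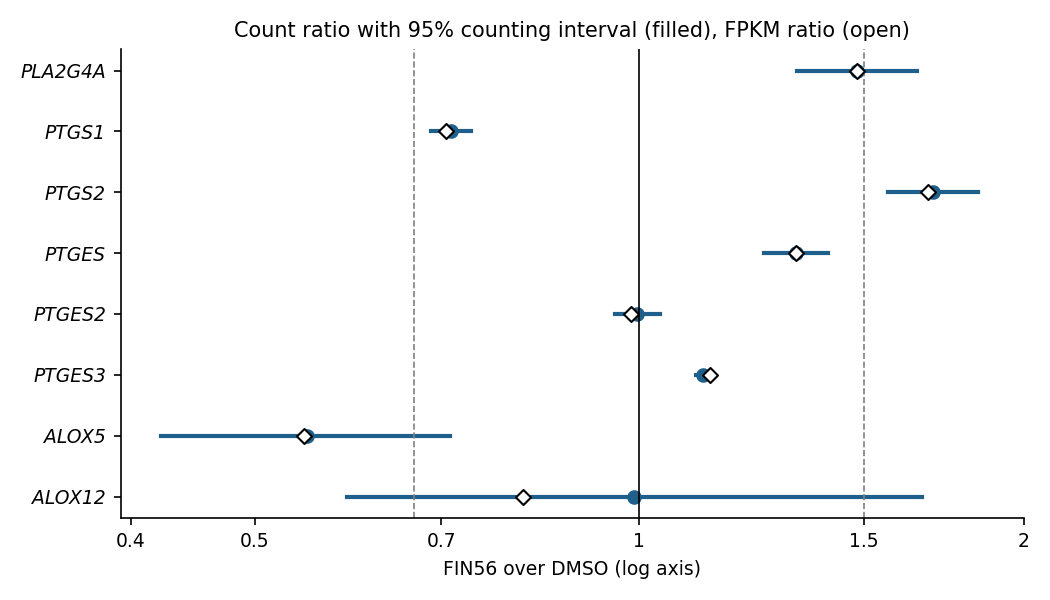
FIN56 over DMSO on a log axis for the 8 genes with a fold change, as the count ratio with its 95% counting interval (filled circles and bars) and the FPKM ratio (open diamonds), with dashed lines at 1.5 and 1/1.5. Only PTGS2 had a whole interval above 1.5 (1.56 to 1.84), the interval of PTGS1 (0.687 to 0.739) lay between 1/1.5 and 1, and the intervals of PTGES2 and ALOX12 held 1.

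The 2 cyclooxygenases differed in opposite directions. PTGS2 (ENSG00000073756, chromosome 1, 186671791 to 186680922, minus strand, canonical transcript of 10 exons and 4510 bases; GRCh38, GENCODE release 44) makes the inducible enzyme. It had 929 expected counts with DMSO and 1641 with FIN56, and an FPKM of 3.32 and 5.59. The level was thus higher in the FIN56 library, with an FPKM ratio of 1.68 and a count ratio of 1.70 (1.56 to 1.84). Of those 17372 genes, 4.63% had a fold change as large or larger. PACERR, an antisense RNA that starts within the annotated span of PTGS2 and is known as a regulator of it, had 12 and 10 counts, with a count ratio of 0.801 (0.310 to 2.02), too few reads to show a difference. Both PTGS2 counts were whole, as they are when reads are not split among genes.

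PTGS1 (ENSG00000095303, chromosome 9, 122370530 to 122395703, plus strand, 11 exons and 5020 bases) makes the constitutive enzyme. It was the more abundant cyclooxygenase, with 7070 and 5244 counts and an FPKM of 31.42 and 22.19. It was lower with FIN56, at an FPKM ratio of 0.706 and a count ratio of 0.713 (0.687 to 0.739), short of the 1/1.5 threshold. At or below this fold change lay 13.8% of genes.

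The balance of the pair shifted as a result, and a quotient of 2 genes within a library does not depend on how the libraries are scaled. The FPKM of PTGS1 was 9.46 times that of PTGS2 with DMSO and 3.97 times with FIN56. By FPKM, PTGS2 made up 9.56% of the cyclooxygenase transcripts with DMSO and 20.1% with FIN56. By counts its share was 11.6% (Clopper-Pearson interval 10.9 to 12.3) and 23.8% (22.8 to 24.9). The count quotient of PTGS2 to PTGS1 was 2.38 times higher with FIN56 (2.18 to 2.6). The summed FPKM of the pair was nevertheless lower, 34.74 against 27.78, since the difference in the more abundant PTGS1 was the larger.

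**Figure D3:**
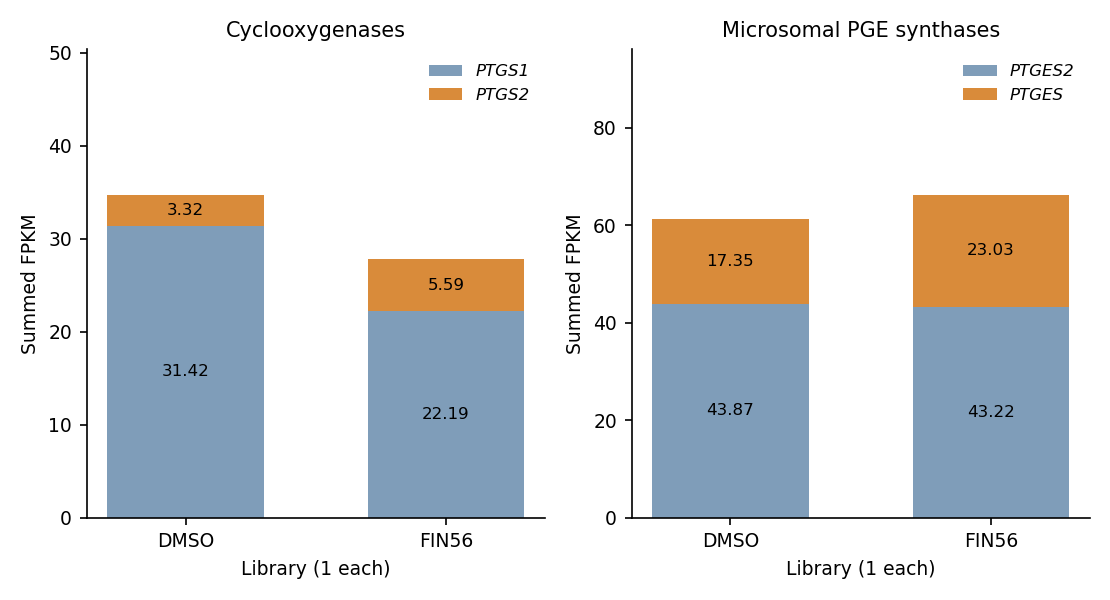
Summed FPKM (bars from 0) of the cyclooxygenases PTGS1 and PTGS2 and of the microsomal prostaglandin E synthases PTGES2 and PTGES in the DMSO and FIN56 libraries, 1 library each. With FIN56 the PTGS2 part was larger in a smaller total (5.59 of 27.78, against 3.32 of 34.74), and the PTGES part was larger above a nearly level PTGES2 part.

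PLA2G4A, which frees arachidonic acid from phospholipids and so supplies both routes, was higher alongside PTGS2. The gene (ENSG00000116711, chromosome 1, 186828949 to 186988981, plus strand, 18 exons) is a neighbour of PTGS2, and their start sites lie 148526 bases apart. Its counts were 552 with DMSO and 851 with FIN56, and its FPKM 2.83 and 4.19. The fold change of 1.48 fell just short of 1.5, and the count ratio of 1.48 had an interval (1.33 to 1.65) that held 1.5. TPM placed it at 1.51 and DESeq2 size factors at 1.52, so its side of the threshold rests on the scaling. Its count quotient to PTGS2 was 0.873 times that with DMSO (0.762 to 1.00), so the data do not separate the fold changes of these neighbours beyond counting error.

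Of the prostaglandin E synthases, the inducible PTGES was higher with FIN56, PTGES2 was level and PTGES3 was slightly higher. PTGES (ENSG00000148344, chromosome 9, 129738331 to 129753042, minus strand, 3 exons) encodes the microsomal enzyme that works with PTGS2. It had 2016 and 2784 counts and an FPKM of 17.35 and 23.03, which gave a fold change of 1.33 and a count ratio of 1.33 (1.25 to 1.41). PTGES2 (ENSG00000148334, chromosome 9, 128120693 to 128128462, minus strand, 7 exons) encodes another microsomal synthase, expressed steadily. It had 4793 and 4974 counts and an FPKM of 43.87 and 43.22, and its count ratio of 0.997 (0.958 to 1.04) held 1. The count quotient of PTGES to PTGES2 was accordingly 1.33 times higher with FIN56 (1.24 to 1.43), and the share of PTGES in their counts was 29.6% (28.5 to 30.7) with DMSO and 35.9% (34.8 to 37.0) with FIN56.

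PTGES3 (ENSG00000110958, chromosome 12, 56663341 to 56688408, minus strand, 8 exons) encodes the cytosolic synthase, which is also the cochaperone of HSP90 known as p23. Its expected counts were 39498.8 and 46172.1, with a fold change of 1.14 and a count ratio of 1.12 (1.11 to 1.14). The counts were not whole, and the gene has processed pseudogenes that share its sequence, so its value is uncertain to the extent that reads were divided. The pseudogenes PTGES3P1 (134.3 and 159.18 counts) and PTGES3P3 (50.93 and 58.73) held few counts beside it, at similar count ratios of 1.14 and 1.11.

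HPGD, the dehydrogenase that inactivates prostaglandin E (ENSG00000164120, chromosome 4, 174490175 to 174523154, minus strand), was barely detected. It had 2 counts with DMSO and 0 with FIN56, and a count of 0 allows up to 3. No fold change is given, and no difference was detectable at this depth. HSC-3 cells thus held transcripts for making prostaglandin E at FPKM values above 2 for each of the 6 synthetic genes in both libraries, and hardly any for this breakdown enzyme.

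Of the lipoxygenases, ALOX5 was lower with FIN56 and the other 2 members were scarce. ALOX5 (ENSG00000012779, chromosome 10, 45374176 to 45446119, plus strand, 14 exons) makes the 5-lipoxygenase of leukotriene synthesis. It had 166 counts with DMSO and 95 with FIN56, and an FPKM of 1.3 and 0.71. The fold change was 0.546 and the count ratio 0.550, with a wide interval (0.423 to 0.712) that held 1/1.5. At or below this fold change lay 4.99% of the 17372 genes. With a pseudocount of 1 FPKM the ratio was 0.743, which no longer passed 1/1.5.

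ALOX12 (ENSG00000108839, chromosome 17, 6996049 to 7010754, plus strand, 14 exons), the 12S-lipoxygenase of platelets and skin, had 32.23 and 32.66 counts. Its FPKM of 0.37 and 0.3 gave a ratio of 0.811, whereas the count ratio was 0.991 (0.590 to 1.66), so no difference was detectable. The gene lies within the span of the antisense gene ALOX12-AS1, which had 259.91 and 248.34 counts. The library kit marks strand, but whether the counting used it is not given in the sources used here, and reads of the pair may not have been told apart. ALOX15B (ENSG00000179593, chromosome 17, 8039034 to 8049134, plus strand), the 15-lipoxygenase-2 of epithelia, had 0 and 2 counts, both at or under the 3 that a count of 0 allows.

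**Figure D4:**
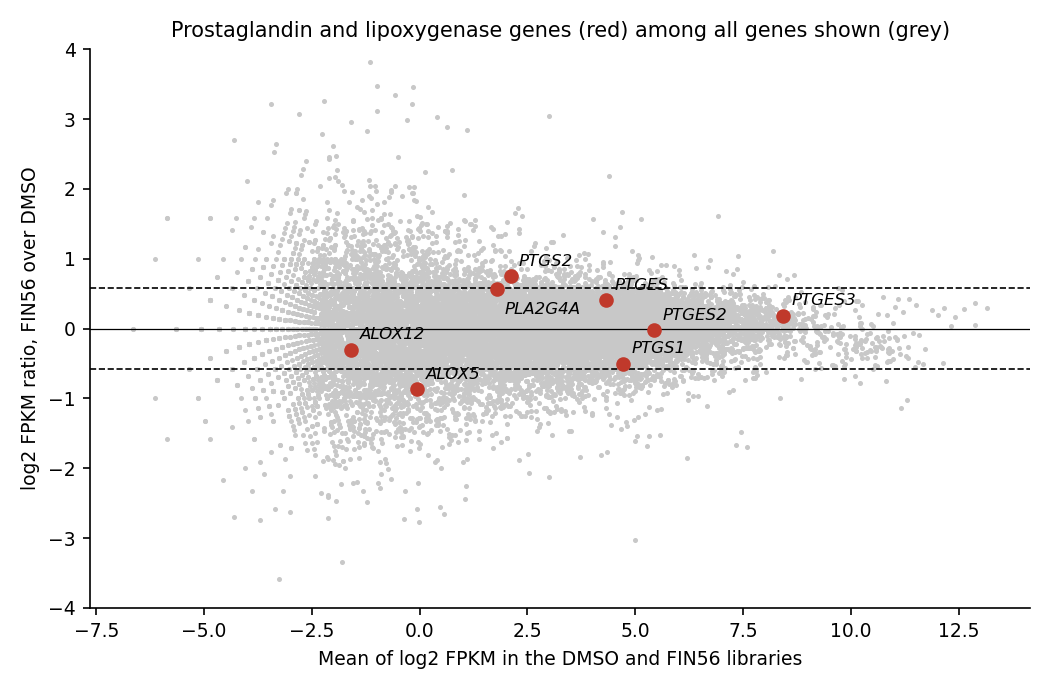
The log2 FPKM ratio of FIN56 over DMSO against the mean log2 FPKM for the 17372 genes that reached 10 expected counts in each library (grey) and the 8 prostaglandin and lipoxygenase genes among them (red), with dashed lines at 1.5 and 1/1.5; 3 grey genes lie beyond the vertical axis. PTGS2 sits above the upper line and ALOX5 below the lower one, both inside the cloud of genes of like abundance.

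The other genes of these routes were read from a list of 42, which did not include the 10. Of these, 7 had no counts in either library and 31 had a fold change: 3 at 1.5 or more, 7 at 1/1.5 or less and 21 between. Over all genes with a fold change the shares past these thresholds were 14.7% and 17.3%. The median log2 fold change was -0.12, against 0 over all genes. Requiring 10 counts in each library left 23 genes, of which 2 were at 1.5 or more (PLA2G4B and PTGER4) and 3 at 1/1.5 or less (ALOXE3, ALOX5AP and PLA2G4D, the last outside the rule for named genes and chosen after its value was seen). The same requirement left 17372 of all genes, of which 1323 were at 1.5 or more and 1936 at 1/1.5 or less, shares near those of the list. For 6 of the 23 the counting interval lay above 1 and for 7 below 1, which is near the shares over all genes given above (31.3% and 31.0%).

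All 7 of the other lipoxygenase and leukotriene enzymes had a fold change, and 4 of them were at 1/1.5 or less, against 17.3% of all genes. They were ALOXE3, ALOX5AP and, with under 10 counts in a library and outside the rule for named genes, LTC4S (28 and 8) and ALOX15 (3 and 1). Both ALOX15 counts are at or under the 3 that a count of 0 allows, so no difference was detectable for it. With 10 counts required in each library, 2 of 5 were at 1/1.5 or less, against 1936 of all 17372 genes. The remaining 3 of the 7 genes of the list at 1/1.5 or less belong to other roles (PLA2G4D, PLA2G4E and PTGER2). PLA2G4E is among them by FPKM only, since its counts of 3 and 6 went the other way. ALOX5AP, which encodes the protein that hands arachidonic acid to 5-lipoxygenase, was lower alongside ALOX5. It had 636 and 293 counts and an FPKM of 11.8 and 5.21, a fold change of 0.442 and a count ratio of 0.443 (0.384 to 0.509). The count quotient of ALOX5AP to ALOX5 was 0.805 times that with DMSO, with an interval (0.599 to 1.09) that held 1. ALOX5 and ALOX5AP are best known from leukocytes. Besides PTPRC and CD3E at 0, the FPKM of the leukocyte marker CD14 was 3.62 and 5.15, and that of CD68, a lysosomal protein gene not confined to leukocytes, was 57.27 and 24.58. The summed FPKM of the 4 was 60.89 and 29.73, most of it from CD68, while CD14 alone was higher with FIN56. Which cells of the culture held the CD68, ALOX5 and ALOX5AP transcripts was not tested.

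ALOXE3, whose epidermal product acts on hydroperoxides in the making of the skin barrier, was also lower, from an FPKM of 5.8 to 2.87 (996 and 506 counts, count ratio 0.488, 0.438 to 0.544). It lies on chromosome 17 with ALOX15B. LTA4H, which makes leukotriene B, was the most abundant of the role at an FPKM of 74.74 and 69.83 and a fold change of 0.934. Its counts were not whole.

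Among the 9 prostanoid receptors, 2 had no counts in either library, 6 had a fold change, and each stayed under an FPKM of 1 in at least 1 library. PTGER4, which encodes the EP4 receptor for prostaglandin E, was the most abundant of them, with 180 and 336 counts and an FPKM of 0.77 and 1.42. It was higher with FIN56, at a fold change of 1.84 and a count ratio of 1.79 (1.49 to 2.16). LTB4R, the leading leukotriene receptor gene at an FPKM of 5.09 and 4.92, had a count ratio of 1.01 (0.938 to 1.10). It overlaps LTB4R2, and its counts were not whole.

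Among terminal prostanoid synthases, 5 of 8 had a fold change. Of these 0 passed either threshold, against 14.7% of all genes at 1.5 or more and 17.3% at 1/1.5 or less. AKR1B1, an aldo-keto reductase with prostaglandin F synthase activity, led in mean FPKM with 64.11 and 70.66 and a count ratio of 1.11 (1.07 to 1.15). Breakdown and transport genes also held 0 of 4 past either threshold. Both roles hold too few genes to set them apart from the shares over all genes. Of the breakdown and transport genes PTGR1, a reductase that acts after HPGD in breakdown and on leukotriene B, was the most abundant. It had an FPKM of 71.06 and 101.65, a fold change of 1.43 and a count ratio of 1.41 (1.36 to 1.46).

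Of the 9 other phospholipases, 7 had a fold change, 1 of them at 1.5 or more and 2 at 1/1.5 or less. Over all genes these shares were 14.7% and 17.3%. The 2 were PLA2G4D and PLA2G4E, and the counts of PLA2G4E (3 and 6) went the other way. PLA2G6, a calcium-independent enzyme, was the most abundant of the 9 and had an FPKM of 2.46 and 2.51 and a count ratio of 1.15 (0.970 to 1.36). PLA2G4B had a fold change of 2.85, from an FPKM of 0.61 to 1.74, but a count ratio of 1.79 (1.38 to 2.34) from 88.75 and 166.07 counts. It shares its sequence with the readthrough gene JMJD7-PLA2G4B, which had 966.8 and 674.69 counts and a count ratio of 0.671 (0.607 to 0.741). Summed, the 2 genes had 1055.55 and 840.76 counts and a count ratio of 0.765 (0.698 to 0.838), so the direction for PLA2G4B alone depends on how reads were divided between them and is uncertain.

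**Figure D5:**
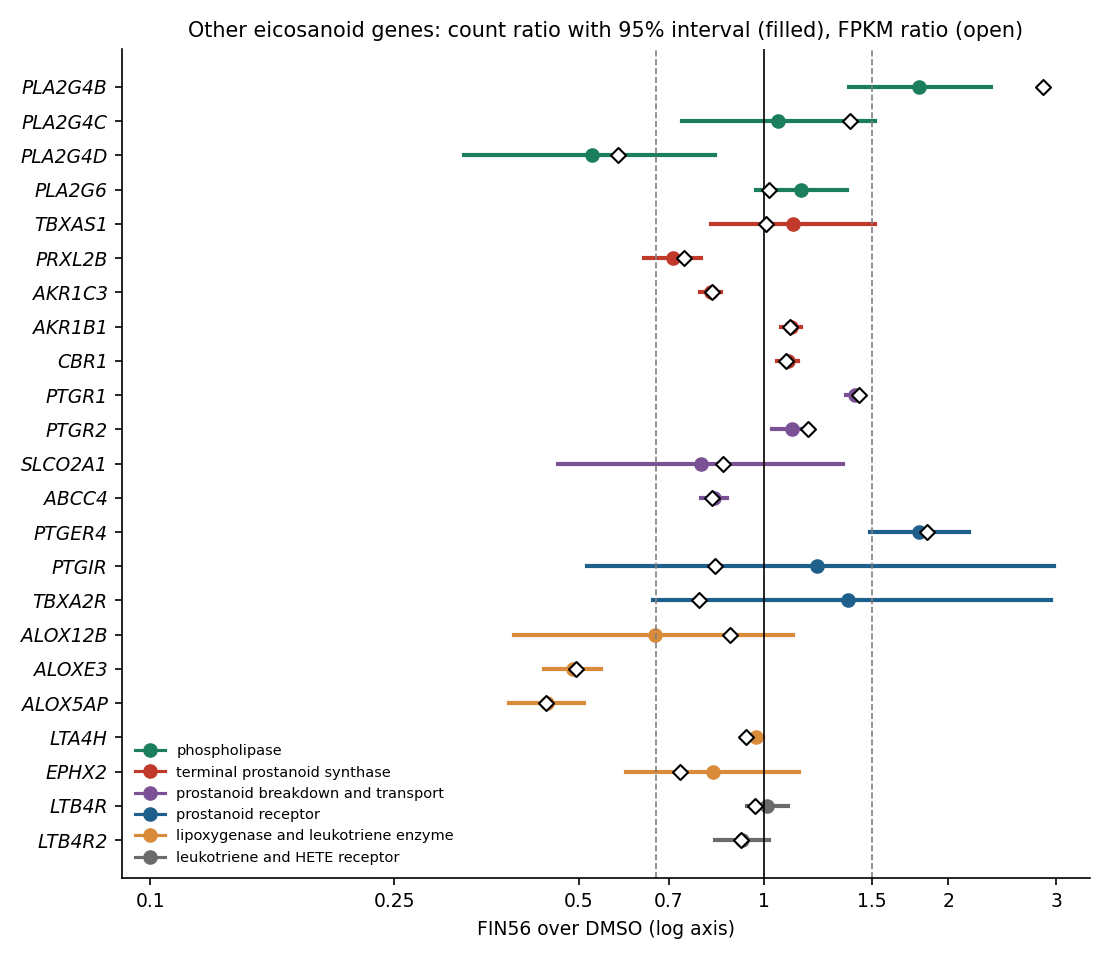
FIN56 over DMSO on a log axis for the 23 other eicosanoid genes that reached 10 expected counts in each library, as count ratio with 95% counting interval (filled, coloured by role) and FPKM ratio (open), with dashed lines at 1.5 and 1/1.5. ALOXE3 (0.488) and ALOX5AP (0.443) lay below the lower line with their whole intervals, and PTGER4 (1.79) and PLA2G4B (1.79) lay above the upper line with intervals that cross it. The direction of PLA2G4B is uncertain, since its value depends on how reads were divided with JMJD7-PLA2G4B, which the interval does not cover.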

How the data were processed

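RNA of HSC-3 cells was sequenced with a stranded poly(A) kit, 1 library per treatment. The study's methods, written for tumor RNA-seq, name AfterQC trimming, STAR 2.6.1a alignment to GRCh38 and RSEM 1.3.1, and the same steps are assumed for these libraries, whose notes name the same tools. Expected counts, as deposited, are RSEM estimates without normalization. The FPKM and TPM values deposited by the authors come from the same estimates, with an effective length set in each library, so an FPKM ratio can depart from a count ratio. The deposited rlog values are on a log2 scale, made with DESeq2 1.26.0. Column names gave the library of all 8 columns.

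Ratios were compared with 1.5, the fold used by the study, and its inverse 1/1.5. Intervals used counts rounded to whole numbers. Alternatives were TPM, rlog, library totals, TMM (edgeR 4.0.16) and median-of-ratios size factors (DESeq2 1.42.0), pseudocounts of 0.1 and 1 FPKM, 4 filters on low values and a threshold of 2. The members and lists were chosen with earlier results of these data known. Besides the members, genes past either threshold with at least 100 counts in both libraries together and the most abundant gene of each role were named. Positions came from GENCODE release 44, which holds 99.7% of the deposited identifiers, and promoters from RefSeq. Python 3.11.15, scipy 1.17.1 and R 4.3.3 were used.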

Additional observations from a re-analysis of the deposited data

How the results depend on the processing

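No paired analysis was possible because there was only 1 library of each treatment, and for the same reason no replicate could be left out. The number of the 10 genes at 1.5 or more was 1. It became 2 with TPM and with DESeq2 size factors, where PLA2G4A joined PTGS2, and 0 with rlog values and at a threshold of 2. The number at 1/1.5 or less was 1 and became 0 with rlog values, when both libraries had to reach an FPKM of 1, with a pseudocount of 1 FPKM and a threshold of 2. The median log2 fold change of 0.082 moved to 0.30 when both libraries had to reach an FPKM of 1 and to 0.18 when either had to, which leaves fewer genes. It was -0.0033 with a pseudocount of 1 FPKM. A pseudocount also gives HPGD and ALOX15B a ratio, so this median covers all 10 genes, and the change of sign comes with the change of genes. Of the other 42 genes, 3 were at 1.5 or more, which became 0 with rlog values, 0 when both libraries had to reach an FPKM of 1, and 1 with a pseudocount of 1 FPKM. At 1/1.5 or less were 7, which became 0 with rlog values, 4 when both had to reach an FPKM of 0.1, 2 when both or either had to reach 1, and 3 when both had to reach 10 counts or with a pseudocount of 1 FPKM. The rlog transformation draws libraries together by construction. PTGS2 ranged from 1.22 (rlog) to 1.74 (DESeq2 size factors), PTGS1 from 0.707 to 0.876 and ALOX5 from 0.549 to 0.918. These 3, PLA2G4A, PTGES and PTGES3 kept their direction under all 7 alternatives that give a ratio. PTGES2 and ALOX12 did not. A pseudocount added to both libraries cannot change a direction, and the other alternatives only rescale or transform the same values. A kept direction is therefore no replicate check. Depth limits ALOX12, HPGD and ALOX15B.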

Other observations

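A pair of scarce transcripts outside the rule for named genes was chosen after their values were seen. PTGER2, which encodes the EP2 receptor for prostaglandin E, had 43 expected counts with DMSO and 6 with FIN56, an FPKM of 0.26 and 0.03 and a count ratio of 0.134 (95% counting interval 0.0466 to 0.316). PTGER4, another prostaglandin E receptor gene whose product signals through cyclic AMP, had a count ratio of 1.79. The count quotient of PTGER4 to PTGER2 was 13.4 times higher with FIN56 (5.50 to 39.0). LTC4S, which joins leukotriene A to glutathione, had 28 and 8 counts and a count ratio of 0.274 (0.108 to 0.618), in the same direction as ALOX5 and ALOX5AP. Both rest on few reads of 1 library per condition.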
